A study of Mus musculus with 4 samples.

Results

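The serpins are a superfamily of proteins that mostly inhibit serine proteases, and mouse members were taken as the protein-coding genes whose symbol is Serpin followed by a clade letter from a to i and a number. Of 26433 genes in the count table, 24 met this rule, and GENCODE M21, an annotation of the mouse genome build GRCm38, holds 61 such genes. The reads came from bulk RNA sequencing of cerebral cortex at embryonic day 15 (E15), labelled C57BL/6 in both groups, with 2 libraries per group here, although the labels speak of sequencing in triplicate. The study's results name the tissue as cortices, whereas its methods name it as telencephalic. One group was wild type (WT). The other, cKI, had the genotype Serpina3/+;Nestin-Cre: human SERPINA3 with a 3×Flag tag sits in 1 Rosa26 allele behind a CAG promoter and a floxed stop cassette, which Nestin-Cre removes in Nestin-positive cells and their progeny. The founders were crossed with B6D2F2 mice before the cross with Nestin-Cre, so the knock-in line is not purely C57BL/6 by its breeding, the WT embryos were littermates of the cKI embryos, and whether they carried Nestin-Cre was not given. Reads of the human transgene were not analysed here.

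A serpin offers its target protease an exposed loop as bait. When the protease cuts the loop, the serpin changes fold and carries the bound protease to its opposite side, where it stays trapped. Members of clade A circulate mainly as liver products, and those of clade B lack a classical secretion signal and act inside cells. Several others are known in the brain, among them neuroserpin and protease nexin-1, which restrain tissue plasminogen activator and thrombin. A few members, such as the collagen chaperone encoded by Serpinh1, do not inhibit proteases at all. Human SERPINA3 (antichymotrypsin) is a single gene, whereas the mouse has a cluster of Serpina3 genes in its place.

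The promoters of Serpinh1, of Serpini1 and of Serpina3n, the member of the mouse Serpina3 cluster most often compared with the human gene, are shown because they belong to the most abundant pair of serpins in this tissue and to a serpin at the limit of detection, and because they differ in CpG dinucleotides. Each line gives the 250 bases before the RefSeq start site in GRCm38.p6, 5′ to 3′ on the strand of the gene, with each CG in capitals. They lie at chr7:99353240-99353489 (minus strand), chr3:75557243-75557492 (plus strand) and chr12:104406458-104406707 (plus strand), outside any exon of GENCODE M21.
Serpinh1: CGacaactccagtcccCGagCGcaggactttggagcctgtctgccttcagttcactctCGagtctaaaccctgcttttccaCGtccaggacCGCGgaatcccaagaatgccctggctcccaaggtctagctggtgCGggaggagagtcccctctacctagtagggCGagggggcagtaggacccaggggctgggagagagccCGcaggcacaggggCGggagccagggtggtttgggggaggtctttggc
Serpini1: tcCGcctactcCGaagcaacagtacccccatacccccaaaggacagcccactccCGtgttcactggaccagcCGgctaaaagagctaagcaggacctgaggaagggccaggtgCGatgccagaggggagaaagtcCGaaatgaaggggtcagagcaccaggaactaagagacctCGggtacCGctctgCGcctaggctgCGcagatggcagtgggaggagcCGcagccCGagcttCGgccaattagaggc
Serpina3n: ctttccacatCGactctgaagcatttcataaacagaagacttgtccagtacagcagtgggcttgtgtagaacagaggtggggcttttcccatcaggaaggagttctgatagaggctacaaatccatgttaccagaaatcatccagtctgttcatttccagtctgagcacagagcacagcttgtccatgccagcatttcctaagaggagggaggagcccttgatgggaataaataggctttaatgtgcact
These windows hold 11, 13 and 1 CG, respectively.

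The 4 libraries had between 17423512 and 18119444 reads. The detection limit was set at 3 reads, about the one-sided 95% upper limit of the mean for a count of 0. It corresponded to 0.166 to 0.172 CPM (counts-per-million) and covers counting error only. The study's methods define biological replicates in mice as different embryos in general, but the labels do not say from which embryos these libraries came, so the p-values measure the spread between libraries. The cKI libraries held 13223 and 11882 reads of Xist and the WT libraries 5 each, while Kdm5d of chromosome Y had 0 reads in both cKI libraries and 951 and 918 in WT, so genotype and embryo sex cannot be told apart in any comparison that follows. Neuron and radial glia markers were high throughout, with summed levels of at least 5336 and 2221 CPM. The 7 hepatocyte markers summed to at most 1.77 CPM. One cKI library, KI3, stood apart in choroid plexus markers, whose summed level was 67.5 CPM there, 10.5 CPM in KI2 and 2.38 and 4.71 CPM in the WT libraries. Ttr held most of these reads in KI3, with 956 there, 116 in KI2 and 0 and 4 in WT1 and WT3. Folr1 differed less, with 20 reads in KI3 and 16 in WT3.

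Of the 61 annotated serpin genes, 13 were detected, defined as over 3 reads in both libraries of at least one group. Another 11 had reads at or under that limit, and 37 had no row in a table whose rows all hold at least 1 read. The clades differed in how many members were read. Clade A had 24 genes, of which 4 had a row and 0 were detected. Clade B had 26 genes, with 10 listed and 5 detected. In clades C to I together, 8 of 11 genes were detected.

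**Figure D1:**
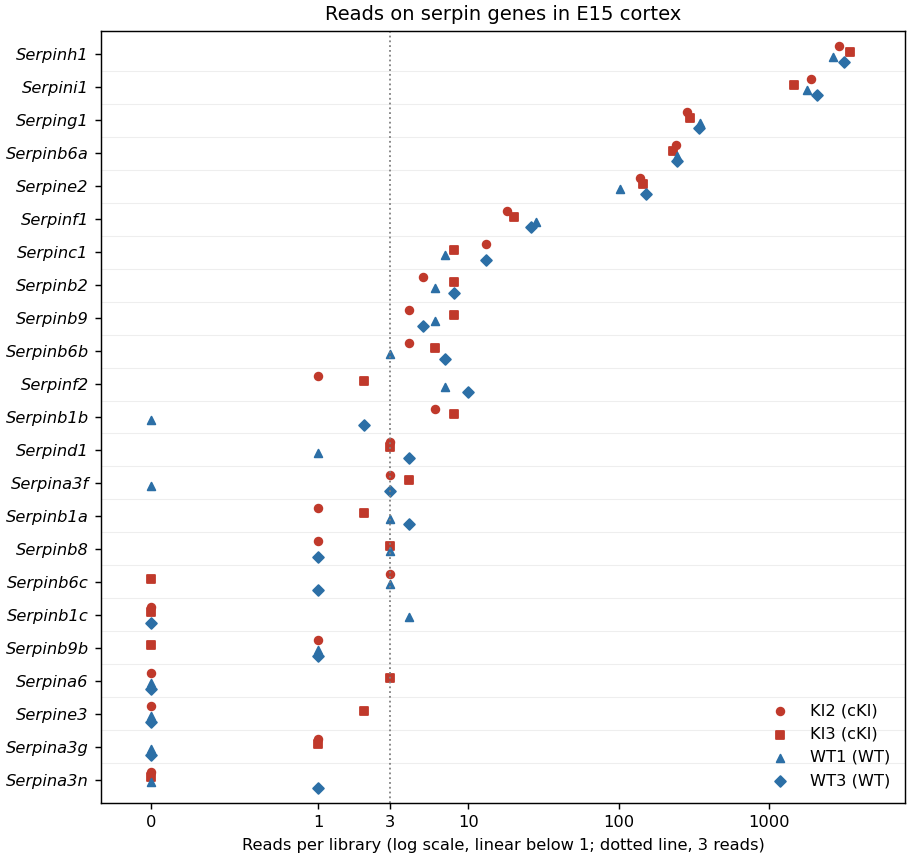
Reads per library (horizontal, log scale, linear below 1) for serpin genes with a row, from the most to the fewest reads; red symbols are the cKI libraries KI2 and KI3, blue symbols the WT libraries WT1 and WT3, and the dotted line marks 3 reads. Serpinh1 and Serpini1 lie at 1459 reads or more in all 4 libraries, and the 4 clade A genes have at most 4 reads in any library.

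The genes of clades A and B lie mostly in clusters. On chromosome 12, 23 serpin genes of clade A lie within 799.5 kb, and 0 were detected. On chromosome 13, 15 genes of clade B span 1161 kb, of which 8 had a row and 4 were detected. Serpina3n, whose human counterpart is the transgene, had 0, 0, 0 and 1 reads in KI2, KI3, WT1 and WT3. Serpina3f had 3 and 4 reads in cKI and 0 and 3 in WT, and Serpina3g had 1 read in each cKI library and 0 in WT. The listed endogenous Serpina3 genes were thus at or close to the limit of detection in both groups. Serpina6, which encodes the corticosteroid carrier of plasma, had 3 reads in KI3 and 0 in the other libraries. Agt, a clade A serpin by sequence whose symbol falls outside the rule, had 1 read in each of 3 libraries and 0 in WT1. The pseudogenes Serpina3h and Serpina3e-ps, left out by their biotype, had at most 2 reads in any library.

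Counting is uncertain for part of this family because copies share sequence with each other and some members overlap other genes. Of the 50-base words in their transcripts, 29.5% to 79.3% of those of Serpina1a, Serpina1b, Serpina1c, Serpina1d and Serpina1e, which encode antitrypsins, also occurred in another gene, and 78.7% of those of Serpinb9f. These 6 genes had no row. Words were compared on both strands. Of the listed genes, Serpinc1 shared 33.6% (33.1% with Zbtb37), Serpinb6a 25.1% (12.5% with Nqo2) and Serpine3 15.7%, with Ints6. These partners are not serpins and overlap on the opposite strand, and Ints6 had 475 to 513 reads. Serpina3g shared 15.5%, Serpina3f 10.6% and Serpinb2 10.4%. Serpinh1, Serpini1, Serping1, Serpine2, Serpinf1 and Serpinf2 shared at most 0.819%.

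Among listed members, 2 genes carried most of the reads. Serpinh1 and Serpini1 together made up 86.5%, 86.4%, 84.9% and 86.2% of all serpin reads in KI2, KI3, WT1 and WT3. Levels were compared between genes as RPKM, the CPM per kilobase of exon, with library sizes scaled by the trimmed mean of M-values (TMM). Serpinh1 was the highest at 72.7 ± 7.21 RPKM in cKI and 68.3 ± 8.80 in WT (SD, n = 2 here and below), above 95.8% of the genes tested. Serpini1 followed with 12.9 ± 2.66 in cKI and 15.2 ± 1.73 in WT. Serping1 came next, with a mean over the 4 libraries of 7.73 RPKM, then Serpinb6a with 2.43 ± 0.129 in cKI and 2.58 ± 0.00748 in WT. These were followed by Serpine2 and Serpinf1, with means of 0.913 and 0.552 RPKM.

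**Figure D2:**
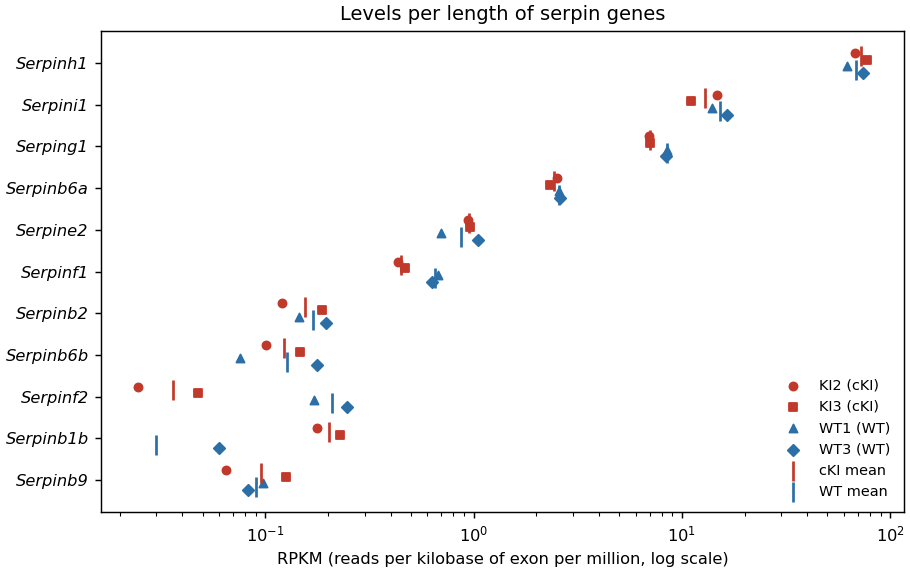
RPKM in each library (horizontal, log scale) for serpin genes with high mean levels; red symbols are cKI and blue symbols WT libraries, vertical ticks are group means (n = 2), and the WT1 value of 0 for Serpinb1b is not drawn. The 6 genes at the top each keep above the next one drawn in all 4 libraries, and from Serpinb2 downwards neighbours overlap.

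The order of these 6 genes did not overlap between neighbours: the lowest library of each was above the highest library of the next, and Serpinf1, the last of them, was above Serpinb2. From Serpinb2 on, each gene overlapped the next. With the length of the longest coding transcript in place of all exons together, an alternative added after seeing the data, the same 6 genes kept their order without overlap, but their levels were higher by unequal factors, at 75.7 RPKM for Serpinh1, 25.1 for Serpini1 and 8.19 for Serpinb6a.

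For the comparison of cKI with WT, 15786 genes passed the expression filter, among them 8 serpins. With edgeR's quasi-likelihood test and Benjamini-Hochberg adjustment over all genes tested, 0 of the 8 serpins were called at 0.05, against 0.12% of all genes tested (19 genes), of which 0.0697% were called higher and 0.0507% lower in cKI. Among these 19 genes were Xist and the chromosome Y genes Kdm5d, Eif2s3y, Ddx3y and Uty. Without chromosomes X and Y, 11 genes were called (0.0722% of those tested), of which 0 were serpins. DESeq2 and edgeR's likelihood ratio test also called 0 serpins. At an unadjusted p under 0.05 there was 1 serpin, Serping1, against 4.6% of all genes. The adjusted p-values of the 8 serpins lay between 0.969 and 0.997. Their median log2 fold change (cKI minus WT) was -0.16, where that of all genes tested was 0.00427, and 5 of 8 were below 0, where 48.8% of all genes were. The groups did not overlap for 4 of 8 serpins, all lower in cKI, where 34.1% of all genes did not overlap and 16.9% did so with cKI lower.

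**Figure D3:**
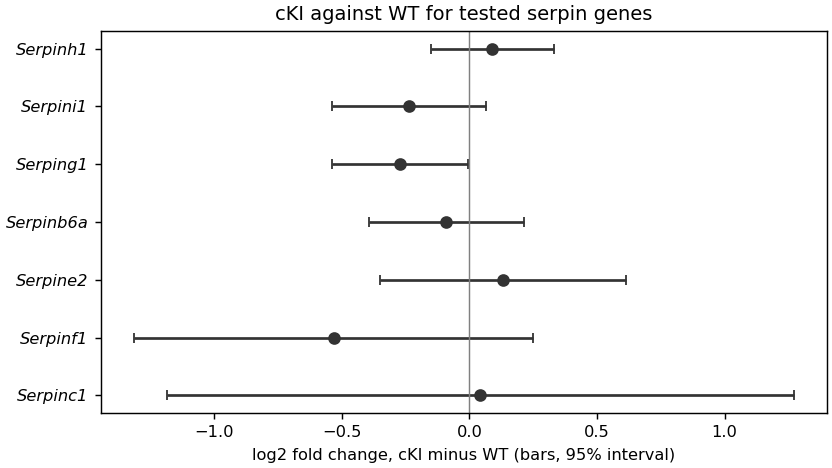
log2 fold change between cKI and WT (points) with its 95% interval from edgeR's quasi-likelihood fit (bars) for 7 of the 8 serpin genes tested, ordered by their level in WT. The interval of Serping1 ends just below 0 at -0.0052, and the other intervals drawn include 0.

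Serpinh1 (chromosome 7, 99345376 to 99353239, minus strand) encodes Hsp47, the chaperone of the endoplasmic reticulum that binds newly made procollagen. It had 2909 and 3444 reads in the cKI libraries and 2675 and 3172 in WT. The highest value was in KI3 and the lowest in WT1, and the groups overlapped. Its log2 fold change was 0.09 (95% interval -0.15 to 0.33, standard error 0.11, adjusted p = 0.990 in edgeR). The sign was carried by single libraries, since it was -0.02 without KI3 and -0.04 without WT1.

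Genes of the procollagen pathway were compared beside it. Of 21 procollagens and processing enzymes, 20 were tested and 0 were called in either direction. Their median log2 fold change was 0.16, where that of all genes tested was 0.00427, and 4 of 20 were below 0. In edgeR's quasi-likelihood test 5 of the 20 had an unadjusted p under 0.05, all procollagen chains, against 4.6% of all genes tested. The groups did not overlap for 9 of the 20, against 34.1% of all genes tested. Col1a1, a chain of type I collagen, had 82 and 64 reads in cKI and 10 and 28 in WT, and was 1.91 log2 units higher in cKI by a fit with a standard error of 0.41 (edgeR's adjusted p = 0.400). Col1a2 had a log2 fold change of 1.40, Col3a1 of 0.78, Col5a1 of 0.49 and Col5a2 of 0.31. Only Col1a1 and Col1a2 were called under any alternative, both by the likelihood ratio test (adjusted p = 0.00295 and 0.0445) and without KI3 (0.0377 and 0.0116), and Col1a1 also without WT3 (0.00823). The most abundant members on the RPKM scale, P4hb, Ppib and Plod3, which modify or fold procollagen, had log2 fold changes of 0.10, 0.20 and 0.03. Meningeal markers, of which Col1a1, Col1a2 and Col3a1 are part, summed to 22.4 and 20.3 CPM in cKI and 10.1 and 11.7 CPM in WT, and 0 of the 8 markers were at 0 throughout. Of the 5 meningeal markers tested, the 3 collagens and Dcn had a log2 fold change above 0, and Foxc1 had -0.49 (26 and 38 reads in cKI, 53 and 35 in WT). Their part in the collagen values was not tested. Heat shock regulators and chaperones, the other group to which Hsp47 belongs, had 0 of 16 called and a median log2 fold change of 0.02. The most abundant of them, Hsp90ab1, Hspa8 and Hsp90aa1, had log2 fold changes of 0.01, 0.18 and -0.03.

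Serpini1 encodes neuroserpin, an inhibitor of tissue plasminogen activator that neurons secrete. It had 1902 and 1459 reads in cKI and 1799 and 2088 in WT. KI3 was the lowest library, and KI2 lay between the WT libraries. The log2 fold change was -0.24 (standard error 0.13, 95% interval -0.54 to 0.07, adjusted p = 0.969 from edgeR). It was -0.04 without KI3, -0.11 without WT3, -0.35 without WT1 and -0.47 without KI2. The size of the difference thus rested on single libraries, most of all on KI3. The ratio of Serpinh1 to Serpini1 reads was 2.36 in KI3 and between 1.49 and 1.53 in the other 3 libraries. KI3 was also the library with the lowest summed level of neuron markers, 5336 CPM against 5684 to 6048 CPM in the others, and 6 of 6 neuron markers had a log2 fold change below 0, with 0 called and 0 at 0 throughout. It also held the choroid plexus reads given above, where 5 of 5 tested markers had a log2 fold change above 0. The part of these in the Serpini1 value was not tested. Serpini1 (chromosome 3, 75557547 to 75643495, plus strand) lies head to head with Pdcd10, whose annotated start is 690 bases away on the other strand. Pdcd10, which encodes an adaptor protein mutated in cavernous malformations of brain vessels, had 574 and 556 reads in cKI and 600 and 616 in WT (log2 fold change -0.13, edgeR's adjusted p = 0.969).

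Serping1 (chromosome 2, 84765387 to 84775444, minus strand) encodes the C1 inhibitor, which restrains the first proteases of the complement cascade and plasma kallikrein. It had 284 and 298 reads in cKI and 349 and 340 in WT. Both cKI libraries lay below both WT libraries, and the groups were narrow, at 16.3 ± 0.229 and 19.6 ± 0.193 CPM. The log2 fold change was -0.27 (standard error 0.12, 95% interval -0.54 to -0.0052), with an unadjusted p of 0.0465 and an adjusted p of 0.969 in edgeR. The log2 fold change was between -0.29 and -0.26 with each library left out in turn, but the unadjusted p was then 0.0850 to 0.142. It was also above 0.05 with upper quartile scaling (0.0564), with at least 10 reads in every library (0.0523), in the likelihood ratio test (0.0625) and in DESeq2 (0.14). In edgeR's quasi-likelihood test it stayed under 0.05 with relative log expression scaling (0.0449), with no filter (0.0445) and without chromosomes X and Y (0.0452). In bulk tissue, fewer cells of a type and less RNA per cell cannot be told apart. Vascular markers were set beside it. The 5 pericyte markers were 59.8 and 57.9 CPM in sum in cKI and 73.9 and 72.9 CPM in WT, with 5 of 5 below 0 in log2 fold change, 0 called, and 0 of 5 at 0 throughout. Of the pericyte markers, Rgs5 had the most reads, with 524 and 495 in cKI and 672 and 648 in WT. The 7 endothelial markers overlapped, with 150.0 and 168 CPM in cKI and 167 and 162 CPM in WT. Markers of other cells were also below 0 in log2 fold change, 5 of 8 for microglia and 6 of 7 for red blood cells, with 0 called. The meningeal markers given above, Col1a1, Col1a2 and Col3a1 among them, went the other way in sum. Foxc1, also among them, had a log2 fold change of -0.49, and Dcn of 1.30. The part of pericytes or of any other cells in the Serping1 value was not tested.

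Serpine2, or protease nexin-1, inhibits thrombin and the plasminogen activators and is bound to the cell surface. It had 138 and 145 reads in cKI and 102 and 151 in WT, so the WT libraries spanned both cKI libraries. The log2 fold change was 0.13 (95% interval -0.35 to 0.61) and became -0.13 without WT1. Serpinf1 encodes pigment epithelium-derived factor, a secreted protein that does not inhibit proteases. It had 18 and 20 reads in cKI against 28 and 26 in WT. The groups did not overlap, but at these counts the log2 fold change of -0.53 had an interval from -1.31 to 0.25 (adjusted p = 0.969, edgeR). A 2-fold difference in either direction was outside the intervals of Serpinh1, Serpini1, Serping1, Serpinb6a and Serpine2. The interval of Serpinf1 held a 2-fold lower but not a 2-fold higher level in cKI, and that of Serpinc1 (-1.18 to 1.27) held both.

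Serpinb6a, an intracellular inhibitor needed in the inner ear for hearing, was the only clade B gene tested. It had 240 and 229 reads in cKI and 246 and 244 in WT, a log2 fold change of -0.09 (95% interval -0.39 to 0.21). Of its 5409 exon bases, 762 overlap Nqo2, 584 overlap 1110046J04Rik and 241 overlap Ripk1, each on the opposite strand, and the sources used here do not state whether counting used strand. Serpinc1 encodes antithrombin, a product of liver. It had 13 and 8 reads in cKI and 7 and 13 in WT, and 2942 of its 8546 exon bases overlap Zbtb37 on the opposite strand. Zbtb37 had 169 to 318 reads, and whether the few Serpinc1 reads belong to Zbtb37 was not tested.

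The other detected members did not pass the filter for the test, and in 2 of these 5 the groups did not overlap, where 34.1% of all genes tested did not. Both counted as detected only through the group where they were high, and they are described after their values were seen, with no test in the main fit. In edgeR's quasi-likelihood fit with no filter, the adjusted p was 0.889 for each. Serpinf2, which encodes antiplasmin, the main inhibitor of plasmin, had 1 and 2 reads in cKI and 7 and 10 in WT. Its neighbour on chromosome 11, Serpinf1, starts 9030 bases beyond its end on the same strand. Serpinb1b, a paralog of the neutrophil elastase inhibitor Serpinb1a, had 6 and 8 reads in cKI and 0 and 2 in WT. Serpinb1a itself had 1 and 2 reads in cKI and 3 and 4 in WT, and Serpinb1c had 4 reads in WT1 and 0 elsewhere. The other 3 of the 5 overlapped between the groups: Serpinb2, an inhibitor of urokinase, had 5 to 8 reads, Serpinb9, an inhibitor of granzyme B, 4 to 8, and Serpinb6b 3 to 7. Serpind1 (heparin cofactor II), Serpinb8, Serpinb6c, Serpinb9b and Serpine3 had at most 4 reads in any library.

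As a whole, the family had 315.5 and 313 CPM in the cKI libraries and 299 and 350.4 CPM in WT. The cKI values lay between the WT values, and the group means of 314 ± 1.69 and 325 ± 36.5 CPM gave p = 1 in an exact two-sided permutation test, where 0.33 is the smallest p that 2 against 2 libraries allow. The difference of -10.3 CPM became 15.5 CPM without WT3. Without Serpinh1 and Serpini1, the other members summed to 42.5 and 42.6 CPM in cKI and 45.1 and 48.5 CPM in WT (exact permutation p = 0.33).

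The lists of proteases, and of receptors and cofactors of proteases and of serpin-protease complexes, held 0 called genes. Of 24 genes listed as extracellular serine proteases or related to them, 12 were tested, with a median log2 fold change of 0.03. The most abundant on the RPKM scale were Masp1, a complement protease, with a log2 fold change of 0.04, Htra1, a secreted protease that cuts matrix proteins, with 0.43 (unadjusted p = 0.0223, adjusted p = 0.969, edgeR), and Furin, a proprotein convertase, with 0.11. Htra1 had 435 and 479 reads in cKI and 280 and 387 in WT, so the groups did not overlap. Of 13 intracellular and granule proteases, 6 were tested, with a median of 0.04. Ctsb and Ctsl, lysosomal cathepsins, had log2 fold changes of 0.04 and 0.05. Ctss, a cathepsin of microglia, had 87 and 83 reads in cKI and 106 and 124 in WT (-0.46, unadjusted p = 0.0436, adjusted p = 0.969, edgeR). The 8 microglia markers summed to 34.1 and 35.6 CPM in cKI and 38.4 and 39.7 CPM in WT, with 5 of 8 below 0 in log2 fold change, a median of -0.07 and 0 of 8 at 0 throughout, and their part in the Ctss value was not tested. Of 16 receptors and cofactors, 14 were tested, with a median of -0.00278. Lrp1, which clears serpin-protease complexes, had a log2 fold change of 0.03, the reelin receptor Lrp8 had -0.02 and the thrombin receptor F2r had -0.09.

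**Figure D4:**
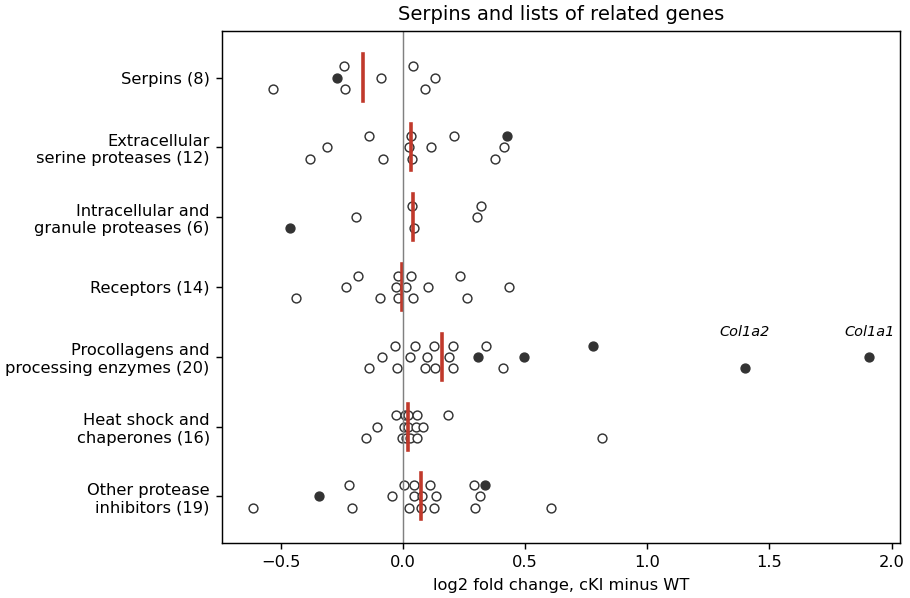
log2 fold change between cKI and WT (horizontal) for each tested gene of the serpins and of 6 lists of related genes, with the number tested in parentheses; filled points have an unadjusted p under 0.05 in edgeR's quasi-likelihood test and red bars are medians. The serpin median lies at -0.16, that of the procollagen list at 0.16 with Col1a1 and Col1a2 farthest to the right, and 0 genes of these lists pass an adjusted p of 0.05.

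The promoters of the family were compared by their CG count in the same window of 250 bases, read on one strand since CG reads the same on both. RefSeq windows were found for 52 of the 61 serpin genes, and for genes with several starts the window with the most CG was taken. Serpine2 had 34, Serpinb6a 20, Serpini1 13 and Serpinh1 11, and these 4 were the only serpins with at least 10, a number reached by 40.2% of all 27025 genes with a window. The other 2 tested genes with a window, Serpinf1 and Serpinc1, had 2 each. The 14 genes that had reads but were not tested held 1 to 8, and the 32 without a row held 0 to 9, with a median of 2. A window for Serping1 was not found. The count of CG was given as a description of these windows, with no test.

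**Figure D5:**
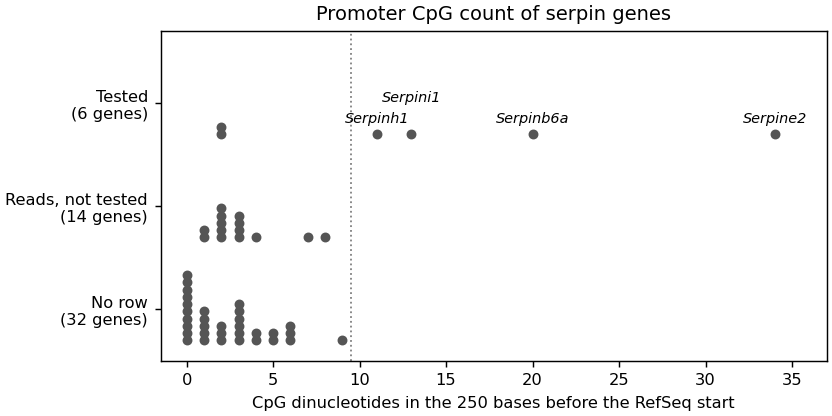
CpG dinucleotides in the 250 bases before the RefSeq start (horizontal) for 52 serpin genes, 1 point a gene, in 3 rows: genes without a row in the count table, genes with reads that were not tested, and tested genes; the dotted line separates counts of 9 and 10. The 4 named genes, at 11 to 34, are among the 5 serpins with the highest levels in this tissue.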

How the data were processed

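RNA from E15 tissue, telencephalic in the study's methods and cortex in its results, was sequenced on the Illumina platform. For KI2, KI3, WT1 and WT3 the authors deposited unnormalized counts of reads on each gene. The processing notes of the submitters name Bowtie2 2.2.3, TopHat2 2.0.12 and HTSeq 0.6.0 and build mm9, whereas the positions of 24486 of 26433 genes were those of GENCODE M21 (GRCm38), which was used here. Columns were matched to genotypes by name, and not to single labelled samples. The authors' own comparison, deposited as a mean signal, a fold change as a ratio, a log2 fold change and p-values, was not used.

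Counts were tested with edgeR 4.0.16 in R 4.3.3 (default expression filter, TMM, quasi-likelihood test, Benjamini-Hochberg adjustment over all genes tested, threshold 0.05). The biological coefficient of variation was 8.72%. Standard errors are the absolute log2 fold change divided by the square root of F, and intervals are 95%. RPKM used the union of exons. The script was tested on simulated data, with 50 genes changed at each size. It called 28% of them at a log2 fold change of 0.5, 78% at 0.7, 80% at 1 and 100% at 1.5. It also called 17 genes that had not been changed. DESeq2 1.42.0, other scalings and filters, the likelihood ratio test, removal of chromosomes X and Y and leaving out each library were the alternatives. The members and lists were chosen with earlier results of these data known. The tested serpins were named except 1, which is counted but not reported here, and of each list the 3 highest by RPKM and those with an unadjusted p under 0.05. Promoter sequences are from RefSeq (GRCm38.p6).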

Additional observations from a re-analysis of the deposited data

How the results depend on the processing

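The count of called serpins was 0 in the main fit, in 7 other fits of all libraries and in the 4 fits that left out a library, where the lone library of a group was assumed to vary like the other group. In fits of all libraries the log2 fold changes of the 8 serpins kept their sign wherever they were tested. Signs reversed only without a library: Serpinc1 ranged from -0.38 (without KI2) to 0.56, with -0.34 without WT1; Serpinh1 from -0.035 (without WT1) to 0.23, with -0.02 without KI3; and Serpine2 from -0.13 (without WT1) to 0.45. The median of the tested serpins ranged from -0.27 to -0.04 across these fits, and the family total from -36.1 to 15.5 CPM (cKI minus WT). Of serpins, 24 were tested with no filter. Over 10 reads in both libraries of a group left 7 detected, at least 1 read in any library gave 24, and leaving out a library gave 13 to 15. The number of all genes called was 19 in the main fit, 6 with at least 10 reads in every library, 54 with the likelihood ratio test, 11 without chromosomes X and Y, and from 46 to 71 without a library. The filter and the removal of chromosomes tested fewer genes. Both left out Xist, Kdm5d, Eif2s3y, Ddx3y and Uty, which were called in the main fit. For the other settings the cause was not tested. Of related genes, 2 were called by the likelihood ratio test, Col1a1 and Col1a2, and 0 to 2 without a library. No paired analysis was possible because WT and cKI have no replicate number in common in the labels, and only 1 in the column names. The 95% intervals of Serpinf1 (lower in cKI) and Serpinc1 (both directions) reach beyond a 2-fold change. The 16 listed serpins that were not tested in the main fit have at most 10 reads in any library.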

Other observations

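Protease inhibitors of other families were compared as well. Of 28 listed, 19 were tested, 0 of them passed an adjusted p of 0.05, and the median was 0.07 in log2 fold change. Pebp1, which encodes a kinase-binding protein, reached 302.5 RPKM over the 4 libraries, Cst3 (cystatin C) 113 RPKM and Cstb (cystatin B) 38.2 RPKM, against 70.5 RPKM for Serpinh1, the highest serpin. Spint2, a Kunitz-type inhibitor of membrane-bound serine proteases, had 343 and 415 reads in cKI and 268 and 321 in WT (log2 fold change 0.33, unadjusted p = 0.0427, edgeR's adjusted p = 0.969). Reck, a membrane-anchored inhibitor of matrix metalloproteases, had 173 and 164 reads in cKI and 207 and 213 in WT (log2 fold change -0.34, unadjusted p = 0.0469, edgeR's adjusted p = 0.969). The groups did not overlap for either gene, as for 34.1% of all genes tested.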
